A study of Homo sapiens with 6 samples.

Results

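The ATP-binding cassette (ABC) genes were followed in SKOV-3 and Caov-3, cell lines from human ovarian carcinoma. Members were all genes whose only symbol in the array's annotation was ABC, 1 letter from A to G and digits with nothing after, which gave 42 of 19775 named genes. They were measured by 96 probe sets, and 13 of the 42 had 1 probe set. Each gene was followed by its brightest probe set, the one with the highest mean log2 signal over all arrays, and further probe sets were set beside it. A further 2 probe sets joined a member with another symbol, 1 of them ABCB4 with ABCB1, and were left out.

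ABC proteins use ATP to move molecules across membranes, usually out of the cytoplasm. Some of them, among them P-glycoprotein (ABCB1), the multidrug resistance proteins of the C family and the breast cancer resistance protein (ABCG2), pump anticancer drugs or drug conjugates out of cells and are studied in ovarian carcinoma for resistance to taxanes and other agents. Others carry cholesterol and phospholipids, serve mitochondria, peroxisomes or lysosomes, or form part of potassium channels, and the E and F families have no membrane part and work on ribosomes.

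RNA was hybridised to Affymetrix U133 Plus 2.0 arrays, 6 in all, with 1 array for each group. Each line was left untreated, was given interleukin-6 (IL-6) at 30 ng/ml for 1 h, or received siltuximab (CNTO328) for 4 h before 1 h of IL-6. Siltuximab is an antibody that binds IL-6, and IL-6 acts through its receptor and the transcription factor STAT3. The RNA of an array was pooled from 3 flasks, so the groups had no replicates and folds within a line have no replicate check. Precision is limited throughout by the small number of arrays. The 3 arrays of a line were 3 treatments and not replicates, and bulk RNA cannot tell fewer cells expressing a gene from less RNA per cell.

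The deposited values were MAS5 signals on a linear scale, and the median over named probe sets ran from 102 to 122 on the 6 arrays. The Caov-3 IL-6 array stood apart from the rest. Its ratio of 5′ to 3′ signal for beta-actin (ACTB) was 0.494 against 0.643 to 0.767 on the other arrays, and 240 genes were 2-fold or more below their level on both of the other Caov-3 arrays, against 34 to 47 genes on each other array. The untreated SKOV-3 array held 64 genes at least 2-fold above both of its mates, against 12 to 31 on the others. Poly-A control transcripts were at 1.55 and 1.51 times the untreated level on the IL-6 arrays of SKOV-3 and Caov-3, and at 1.02 and 1.16 times on the siltuximab arrays. The part of these differences in the results was not tested.

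Of the 10 carcinoma markers examined, 7 were at or above the array median on all 3 SKOV-3 arrays and 10 on all 3 Caov-3 arrays, with summed signals of 44000 to 51987 and of 101830 to 105746. The data went against the SKOV-3 label at ERBB2. ERBB2, which is known to be amplified and highly expressed in SKOV-3 cells, was at 648, 580 and 733 on the arrays labelled SKOV-3 and higher, at 1017, 1243 and 1067, on those labelled Caov-3. The adhesion gene CDH1 was at 11.0 to 27.5 on the arrays labelled SKOV-3 and at 4763 to 5094 on those labelled Caov-3. KRT19 was at 4.37 to 57.9 against 7263 to 7936, and MUC16 at 2.92 to 5.90 against 593 to 860. The names SKOV-3 and Caov-3 are therefore used for the libraries so labelled. Leukocyte markers (6 genes) summed to 421 to 754 in SKOV-3 and 2124 to 2853 in Caov-3, with 1 and 3 of the 6 at or above the median on all arrays of the line. In Caov-3, HLA-DRA was at 1195 to 1969, CD14 at 573 to 667 (77.6 to 135 in SKOV-3) and the pan-leukocyte gene PTPRC at 25.1 to 35.1. CD79A, at or above the median on all 6 arrays, overlapped between the lines, at 180 to 344 in SKOV-3 and 149 to 201 in Caov-3. Fibroblast and endothelial markers (7 genes) summed to 469 to 607 in SKOV-3 and 4835 to 5857 in Caov-3, with 2 of the 7 at or above the array median on all arrays of each line. Those 2 were COL1A1, at 217 to 339 in SKOV-3 against 3802 to 4826 in Caov-3, and PECAM1, at 125 to 176 against 331 to 1162. VWF, CDH5, COL3A1, COL1A2 and PDGFRB were at or below 69.8 on every array. The part of these markers in the results was not tested.

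Of the 42 ABC genes, 22 passed the filter used for the tests, a signal at or above the array's median on at least 2 of the 6 arrays. Among these, 20 were at or above the median on all 6 arrays, ABCB9 on 4, and ABCA1 on the 3 SKOV-3 arrays only. The remaining 20 genes were below the median on every array, with signals of 0.490 to 84.3. ABCB1, the P-glycoprotein gene and the best known efflux pump for taxanes and anthracyclines, was one of these. Its signal was 23.6 in untreated SKOV-3, 37.0 after IL-6 and 21.6 after siltuximab and IL-6, and 61.7, 83.0 and 62.6 in Caov-3. All 3 Caov-3 arrays were above all 3 SKOV-3 arrays, but every value lay under its array's median, and the other ABCB1 probe set ranged from 23.0 to 73.1 with the lowest value in Caov-3 with IL-6. ABCC2, an exporter of glutathione and glucuronide conjugates at the apical membrane, was at 37.6, 23.4 and 10.9 in SKOV-3 against 2.52, 1.77 and 23.4 in Caov-3. The values of the lines overlapped at this low level, and no difference in ABCC2 was detectable.

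The other dim genes were ABCC11 and ABCC12 of the multidrug resistance protein family, the potassium channel subunits ABCC8 and ABCC9, the pseudogene ABCC13, the peroxisomal ABCD2, and 12 of the 18 genes for lipid, sterol or bile transport. These 12 included the bile salt pump ABCB11, the phosphatidylcholine floppase ABCB4, the plant sterol exporters ABCG5 and ABCG8, and ABCA4, ABCA6, ABCA8, ABCA9, ABCA12, ABCA13, ABCG4 and ABCB5, which was listed here although it is best known as a relative of P-glycoprotein linked to drug resistance. ABCB11 ranged from 5.10 to 10.1 and ABCG5 from 1.65 to 19.8 over the 6 arrays. The highest signal among the dim genes was the 84.3 of ABCG4 in Caov-3 with siltuximab and IL-6.

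The first comparison was between the lines, which answers how they differ in their stock of ABC genes. Levels were compared as log2 of the signal plus a pseudocount of 17.06, which understates differences of dim genes, in a limma fit over all 12290 genes past the filter with line and treatment as factors. The standard errors (SE) of this fit come from how treatment effects differ between the lines and from a prior over all genes. They rest on 2 residual and 4.90 prior degrees of freedom. Neither source measures the spread between cultures of a line. Of the 22 ABC genes tested, 10 (45.5%) were higher in Caov-3 at an adjusted p under 0.05 (limma, Benjamini-Hochberg), where 38.6% of all genes tested were, and 4 (18.2%) were lower, where 32.3% of all genes were. The 3 arrays of one line did not overlap with those of the other for 15 of the 22 (68.2%), against 74.1% of all genes tested. ABCA1, counted among the 4 lower genes and among the 15, passed the filter through SKOV-3 alone and had to differ. The share of ABC genes that differed was therefore near the background. Without the Caov-3 IL-6 array 16 ABC genes were called, 11 higher and 5 lower. The share of all genes called in that fit is not given here, so this count has no background beside it. The median log2 difference was 0.41 for the ABC genes and 0.07 for all genes, and the median absolute difference was 0.62 and 0.68.

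**Figure D1:**
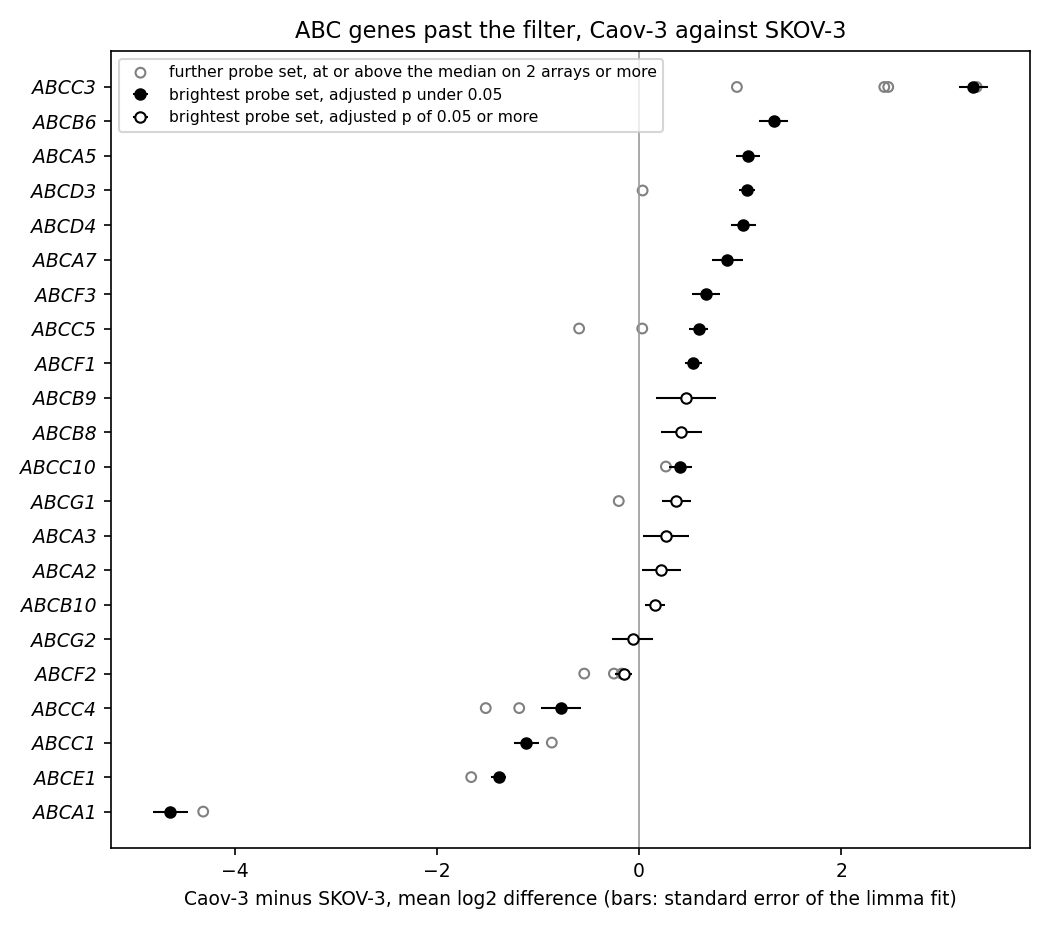
Log2 difference between Caov-3 and SKOV-3 (Caov-3 minus SKOV-3, horizontal axis) for the 22 ABC genes past the filter, with the SE of the limma fit as bars and further bright probe sets of the same gene as grey rings. ABCC3 lies at 3.31 and ABCA1 at -4.64, the other 20 lie between -1.39 and 1.33, and 1 of the 2 grey rings of ABCC5 and the ring of ABCG1 fall below 0 while their brightest probe sets lie above 0.

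Among the 10 genes for multidrug and conjugate efflux, 6 were tested, of which 3 were higher in Caov-3 (ABCC3, ABCC5 and ABCC10), 2 were lower (ABCC1 and ABCC4) and ABCG2 did not pass. ABCC3, on chromosome 17, encodes multidrug resistance protein 3, which exports glucuronides, bile salts and drugs such as etoposide and methotrexate. Its signal was 613 in untreated SKOV-3, 324 after IL-6 and 324 after siltuximab and IL-6, and 4715, 4199 and 3533 in Caov-3. Every Caov-3 array was far above every SKOV-3 array, and the difference was 3.31 on the log2 scale (SE 0.145, adjusted p = 2.74e-06 by limma), a 9.89-fold difference. The 4 further bright probe sets of ABCC3 were also higher in Caov-3, by 3.34, 2.46, 2.43 and 0.97 on the log2 scale.

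ABCC1 encodes multidrug resistance protein 1, an exporter of glutathione conjugates, anthracyclines and vinca alkaloids. It was at 2640, 2241 and 2396 in SKOV-3 against 1021, 1273 and 1041 in Caov-3, in the order untreated, IL-6, siltuximab and IL-6 that is used throughout. ABCC1 was thus lower on all 3 Caov-3 arrays, by a log2 difference of -1.12 (SE 0.122, adjusted p = 0.000158 by limma), and its further probe set differed by -0.86. ABCC4, multidrug resistance protein 4, exports cyclic nucleotides, prostaglandins and nucleoside analogues. It was at 685, 1177 and 1148 in SKOV-3 against 599, 502 and 592 in Caov-3. The lines did not overlap for ABCC4, but their untreated arrays lay close together, and the difference was -0.77 (SE 0.194, adjusted p = 0.00936 by limma). Its further bright probe sets differed by -1.52 and -1.19.

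ABCC5, multidrug resistance protein 5, also carries cyclic nucleotides and nucleoside analogues, and its probe sets went opposite ways. The brightest was at 1040, 1067 and 925 in SKOV-3 against 1481, 1713 and 1397 in Caov-3, a difference of 0.59 (SE 0.0944, adjusted p = 0.00111 by limma). Another was at 763, 748 and 741 in SKOV-3 against 615, 462 and 416 in Caov-3, a difference of -0.59. The direction for ABCC5 thus turned with the probe set, and the remaining set differed by 0.03. ABCC10, multidrug resistance protein 7, transports taxanes and vinca alkaloids. It was at 577, 882 and 736 in SKOV-3 against 871, 1026 and 996 in Caov-3, so that 1 SKOV-3 array lay above the lowest Caov-3 array. The difference was 0.41 (SE 0.117, adjusted p = 0.0164 by limma), and it did not pass the threshold when the untreated or the siltuximab array of either line was left out (adjusted p from 0.0830 to 0.105).

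ABCG2, the breast cancer resistance protein, exports topotecan and mitoxantrone. It was at 152, 164 and 142 in SKOV-3 against 134, 153 and 147 in Caov-3. The values overlapped, and the difference was -0.07 with a 95% interval of -0.54 to 0.41 (adjusted p = 0.785 by limma).

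**Figure D2:**
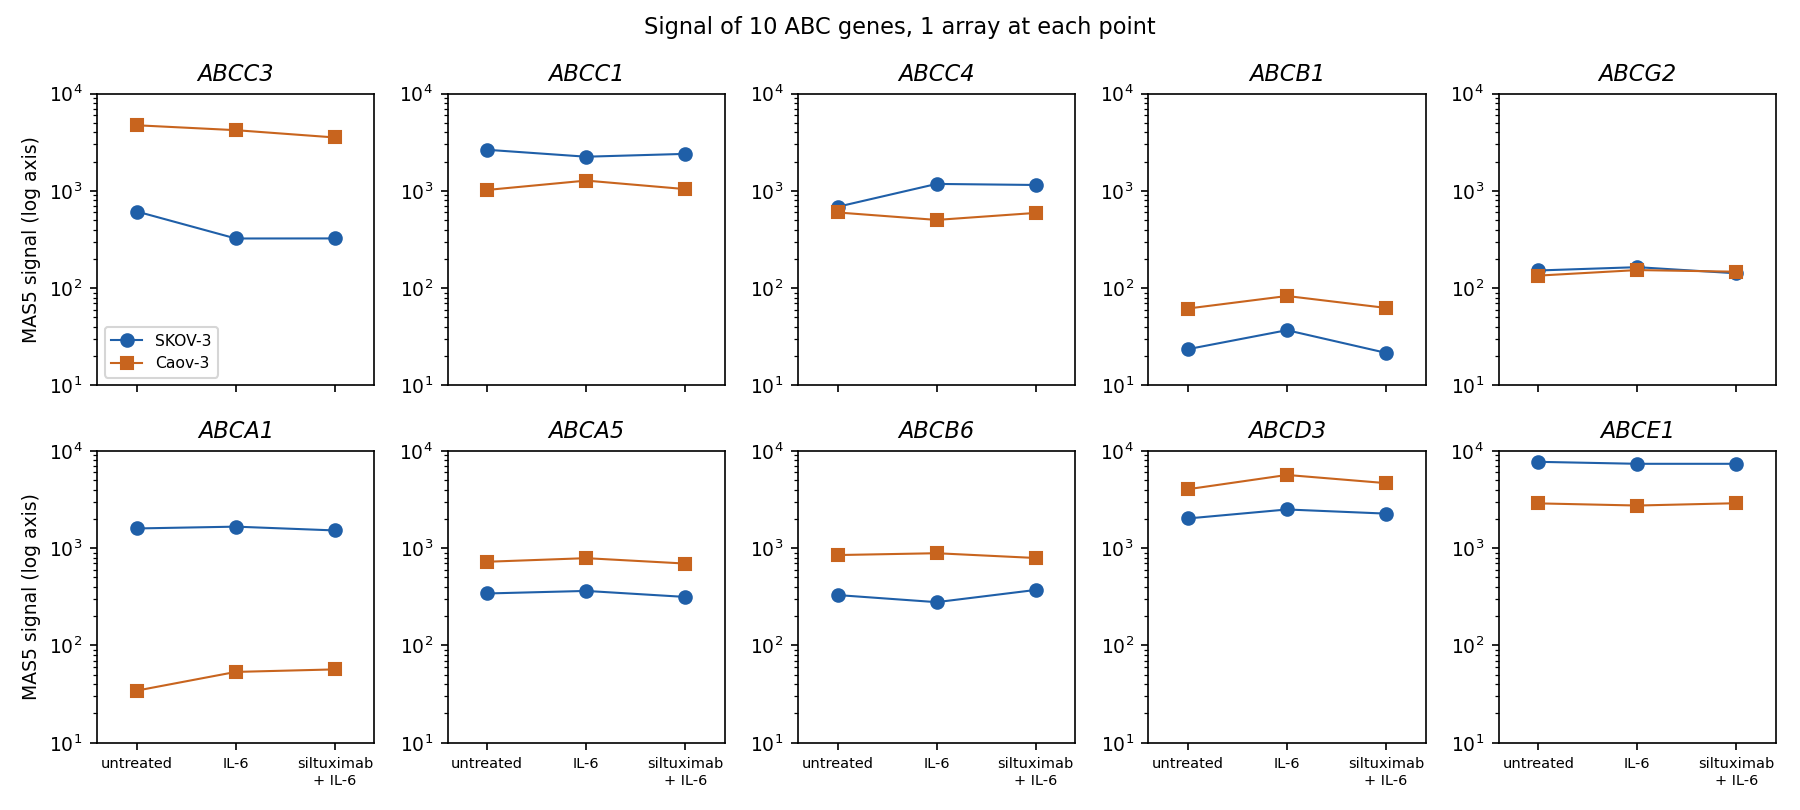
MAS5 signal (log axis) of 10 ABC genes in the 3 treatments of each line, with 1 array at each point, blue circles for SKOV-3 and orange squares for Caov-3. ABCC3 is higher and ABCA1 lower in Caov-3 on all arrays, the 2 lines coincide for ABCG2, and ABCB1 stays below 84 on all 6 arrays.

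Among the genes for sterol and phospholipid transport, 6 of 18 were tested, with ABCA5 and ABCA7 higher in Caov-3, ABCA1 lower, and ABCA2, ABCA3 and ABCG1 not past the threshold. ABCA1 moves cholesterol and phospholipids onto apolipoprotein A-I. Its signal was 1594, 1664 and 1521 in SKOV-3 and 34.4, 53.5 and 56.8 in Caov-3. ABCA1 was below the array median on every Caov-3 array and above it on every SKOV-3 array, and since it passed the filter through SKOV-3 alone it had to differ. No p-value is given for ABCA1, because the filter fixed the outcome of its test. The log2 difference was -4.64, a 25.0-fold difference on that scale, and it was -5.05 with a pseudocount of 1. A further probe set of ABCA1 was at 1147, 1282 and 1145 in SKOV-3 against 40.2, 45.4 and 45.5 in Caov-3.

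The ABCA1 promoter is shown because ABCA1 had the largest difference between the lines of the 22 genes tested. RefSeq promoter windows (GRCh38.p14, 250 bases before to 50 after a gene's start) were at hand for 33 of the 42 ABC genes, in 49 windows. The 250 bases before the ABCA1 start, at chr9:104928156-104928405 on the minus strand, read 5′ to 3′ with matches to the GC box letters GGGCGG in capitals:
ABCA1: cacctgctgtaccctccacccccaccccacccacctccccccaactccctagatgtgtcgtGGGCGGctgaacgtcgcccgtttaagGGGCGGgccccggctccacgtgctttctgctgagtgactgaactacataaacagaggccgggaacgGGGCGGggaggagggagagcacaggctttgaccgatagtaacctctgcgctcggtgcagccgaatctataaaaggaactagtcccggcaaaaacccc
The 3 matches began 189, 163 and 97 bases before the start. Searched on both strands, GGGCGG was in 25 of the 49 ABC windows (51.0%) and in 45.0% of the 35116 windows of all genes. The E-box letters CACGTG, which ABCA1 also holds, were in 9 of the 49 ABC windows (18.4%) and in 7.26% of all windows. These matches describe letters and are not evidence of binding.

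ABCA5, a transporter of late endosomes and lysosomes, was at 342, 364 and 315 in SKOV-3 against 725, 789 and 695 in Caov-3. It was higher on every Caov-3 array, by 1.08 (SE 0.121, adjusted p = 0.000183 by limma). ABCA7, a phospholipid transporter related to ABCA1, was at 287, 306 and 188 in SKOV-3 against 528, 492 and 431 in Caov-3. ABCA7 was also higher on every Caov-3 array, by 0.87 (SE 0.156, adjusted p = 0.00189 by limma). ABCG1, which passes cholesterol to high-density lipoprotein, was at 284, 342 and 292 in SKOV-3 against 337, 452 and 414 in Caov-3. Its values overlapped and the difference of 0.37 (95% interval 0.03 to 0.71) had an adjusted p of 0.0529 by limma, while a further ABCG1 probe set differed by -0.20. The endolysosomal ABCA2 was at 238, 162 and 223 in SKOV-3 against 234, 249 and 244 in Caov-3, a difference of 0.22 (95% interval -0.23 to 0.68). ABCA3, which loads phospholipid into the lamellar bodies of lung surfactant, was at 230, 138 and 134 in SKOV-3 against 202, 241 and 160 in Caov-3, a difference of 0.26 (95% interval -0.28 to 0.81). The lines overlapped for both ABCA2 and ABCA3.

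All 3 listed mitochondrial genes were tested, and 1 was higher in Caov-3. ABCB6, linked to porphyrin transport, was at 330, 279 and 372 in SKOV-3 against 849, 887 and 793 in Caov-3, with no overlap. The difference was 1.33 (SE 0.146, adjusted p = 0.000167 by limma). ABCB8 of the inner membrane was at 173, 172 and 144 in SKOV-3 against 250, 179 and 246 in Caov-3. The lines did not overlap for ABCB8, but the difference of 0.42 (95% interval -0.07 to 0.91) did not pass (adjusted p = 0.108 by limma). ABCB10, an inner membrane protein needed for haem synthesis in red cell precursors, was at 1200, 1478 and 1453 in SKOV-3 against 1292, 1847 and 1491 in Caov-3. Its values overlapped, with a difference of 0.15 (95% interval -0.08 to 0.39).

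Of the 4 peroxisomal and lysosomal genes, 3 were tested and 2 were higher in Caov-3. ABCD3, a major peroxisomal membrane protein that imports fatty acids, was at 2020, 2498 and 2265 in SKOV-3 against 4035, 5655 and 4660 in Caov-3. It was higher on every Caov-3 array, by 1.07 (SE 0.0789, adjusted p = 2.47e-05 by limma), but its further probe set, at 593 to 815 over all 6 arrays, differed by 0.03. ABCD4, needed for the release of vitamin B12 from lysosomes, was at 450, 420 and 485 in SKOV-3 against 826, 983 and 1025 in Caov-3. ABCD4 was higher on every Caov-3 array, by 1.03 (SE 0.122, adjusted p = 0.000238 by limma). The lysosomal peptide transporter ABCB9 was at 137, 99.5 and 62.2 in SKOV-3 against 146, 111 and 161 in Caov-3, with overlap and a difference of 0.46 (95% interval -0.23 to 1.16).

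The 4 genes without a membrane part were all tested, with 2 higher and 1 lower in Caov-3. ABCE1, which splits ribosomes after termination, was at 7713, 7361 and 7361 in SKOV-3 against 2885, 2743 and 2897 in Caov-3. Every Caov-3 array was under every SKOV-3 array, and the difference was -1.39 (SE 0.0705, adjusted p = 4.85e-06 by limma), with -1.66 at its further probe set. ABCF1, an initiation factor partner, was at 3142, 3014 and 2924 in SKOV-3 against 4449, 4799 and 3986 in Caov-3. It was higher on every Caov-3 array, by 0.54 (SE 0.0804, adjusted p = 0.000776 by limma). ABCF3 was at 861, 626 and 831 in SKOV-3 against 1166, 1300 and 1195 in Caov-3. It was also higher on every Caov-3 array, by 0.66 (SE 0.141, adjusted p = 0.00447 by limma). ABCF2 was at 2599, 2483 and 2625 in SKOV-3 against 2331, 2411 and 2201 in Caov-3. The ABCF2 values did not overlap, but the difference was small, at -0.15 (95% interval -0.35 to 0.05, adjusted p = 0.148 by limma). ABCF2 was called with the mean of all its probe sets, at -0.66 (adjusted p = 0.00906 by limma). That mean includes a set at -2.18, which reached the array median on 1 array and was at 3.15, 2.75 and 36.2 in Caov-3. The other further sets of ABCF2 differed by -0.17, -0.25 and -0.54.

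The second comparison was IL-6 against untreated cells, which asks whether 1 h of IL-6 moved the efflux genes. Over both lines, limma called 0 of the 22 ABC genes and 0 of all 12290 genes (0%). Without the Caov-3 IL-6 array 0 ABC genes were called. With all 6 arrays and an unadjusted p under 0.05 there were 4 ABC genes and 1182 genes in all. The 4 were ABCD3 at 0.39 (adjusted p = 0.335), ABCB10 at 0.40 (adjusted p = 0.416), ABCC10 at 0.42 (adjusted p = 0.447) and ABCC3 at -0.53 (adjusted p = 0.445), all by limma on the log2 scale. ABCD3 was called when the SKOV-3 IL-6 array was left out, at 0.47 (SE 0.0962, adjusted p = 0.0435 by limma), in a fit that rests on Caov-3 for IL-6 and called 451 of 12159 genes. ABCD3 on the 3 Caov-3 arrays was highest on the IL-6 array, which stood apart as described above, and its further probe set had a Caov-3 fold of -0.45.

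Within a line, a gene was counted if the higher of its 2 signals reached the median of its array, and folds of 1.5 or more were counted. In SKOV-3, 2 of 22 ABC genes (9.09%) were at least 1.5-fold higher with IL-6, against 3.02% of 11411 genes, and 2 (9.09%) were at least 1.5-fold lower, against 4.59%. The higher genes were ABCC4, with a log2 fold of 0.77, and ABCC10, with 0.60. The lower ones were ABCC3, with -0.89, and ABCA3, with -0.68. For both of these the untreated array was the high one of the 3 SKOV-3 arrays (613 against 324 and 324, and 230 against 138 and 134), the array with 64 genes far above its mates, and the part of that array in these folds was not tested. For ABCC4 the untreated array was the low one of the 3, at 685 against 1177 and 1148, and its part in that fold was not tested either. The median fold of the ABC genes was -0.04 and that of all genes -0.05.

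Of these 4, only ABCC4 had the same direction at every further bright probe set. The ABCC4 sets that were at 379 and 221 untreated were at 472 and 264 with IL-6, log2 folds of 0.31 and 0.24. Of the 4 further bright ABCC3 sets, 3 stood higher with IL-6, from 107 to 123, from 98.6 to 175 and from 181 to 238, log2 folds of 0.18, 0.73 and 0.36, and the fourth had -0.12. The mean of all ABCC3 probe sets gave a SKOV-3 fold of 0.05 in place of -0.89. For ABCC4 the mean of all sets, which includes a dim set at -0.54, gave 0.19 in place of 0.77. The second ABCC10 set was at 392 untreated and 284 with IL-6, a fold of -0.44 where the brightest had 0.60, and the mean of all sets gave 0.08. ABCA3 had 1 probe set.

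**Figure D3:**
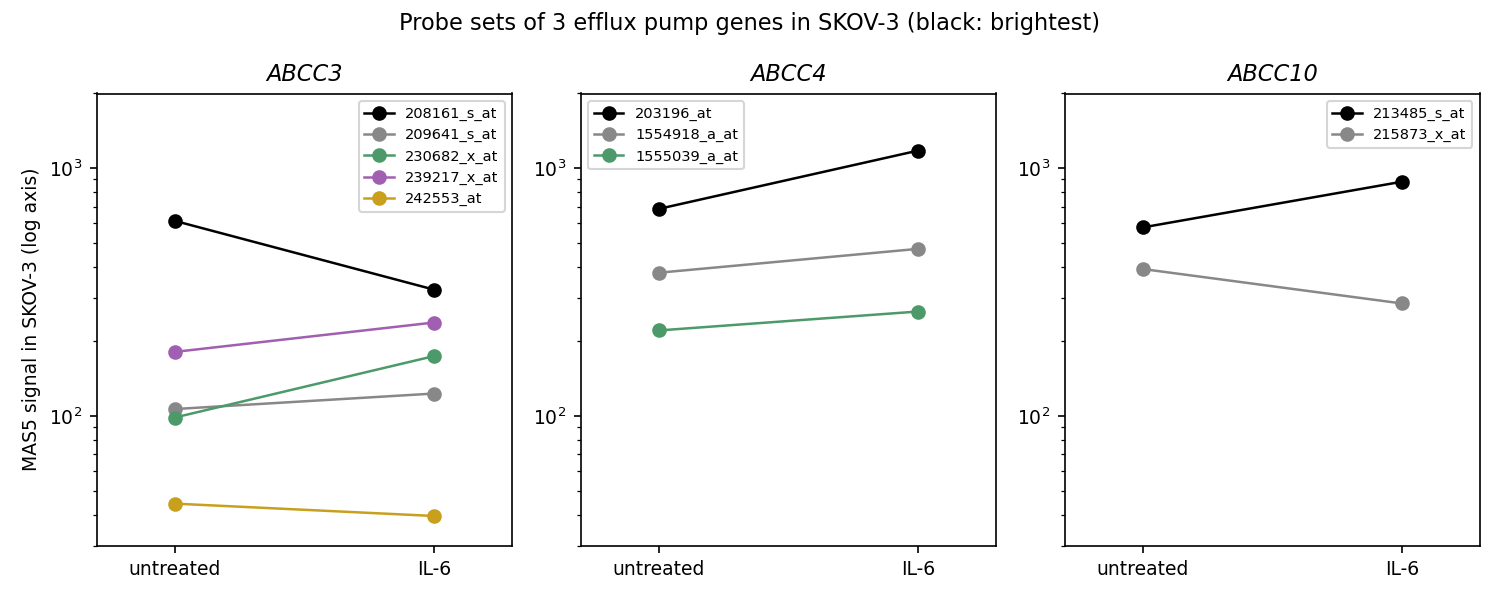
MAS5 signal (log axis) of every bright probe set of ABCC3, ABCC4 and ABCC10 on the untreated and IL-6 arrays of SKOV-3, 1 array at each point, with the brightest set in black. All 3 sets of ABCC4 slope upwards, while the sets of ABCC3 and of ABCC10 slope both ways.

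In Caov-3, 0 of 21 ABC genes were at least 1.5-fold higher with IL-6, against 5.04% of 11862 genes, and 0 were at least 1.5-fold lower, against 6.16%. The folds ran from -0.44 for ABCB8 to 0.51 for ABCB10, followed by ABCD3 at 0.49 and ABCG1 at 0.41. At their brightest sets, ABCC3 had a Caov-3 fold of -0.17 and ABCC10 of 0.23, the same signs as in SKOV-3 and smaller. The second ABCC10 set had -0.24 in Caov-3, and the further ABCC3 sets had -0.01, 0.01, 0.03 and -0.14. ABCC4 had -0.25 and ABCA3 0.24, the opposite of SKOV-3. The difference between the lines in these folds was not tested. Of the 21 folds 15 were above 0, as were 7283 of 11862 for all genes, and the medians were 0.12 and 0.08.

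**Figure D4:**
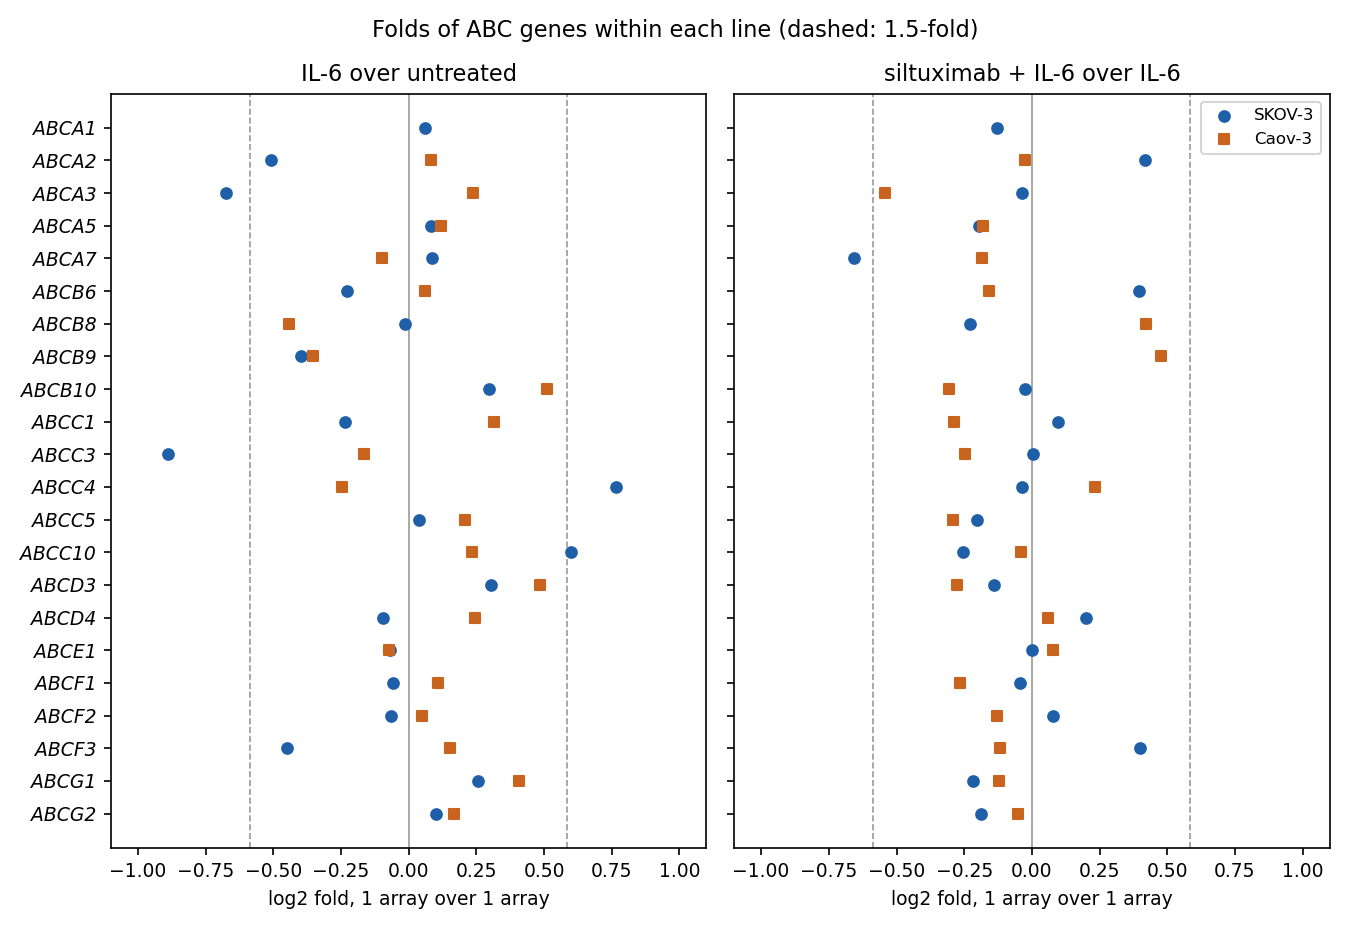
Log2 fold of 1 array over 1 array for the 22 ABC genes past the filter, for IL-6 over untreated (left) and siltuximab plus IL-6 over IL-6 (right), with blue circles for SKOV-3, orange squares for Caov-3 and dashed lines at 1.5-fold; a point is left out where both signals were below their array's median. With IL-6, ABCC3, ABCA3, ABCC4 and ABCC10 pass the dashed lines in SKOV-3 and no gene does in Caov-3; with siltuximab ABCA7 in SKOV-3 does.

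Promoter windows were searched on both strands for TTCNNNGAA, the spaced letters that STAT factors such as STAT3 recognise. Windows were at hand for 33 of the 42 ABC genes. ABCC3 and ABCC1 were among the genes without a window and were not searched. The letters were in 2 of the 49 ABC windows (4.08%) and in 7.66% of all 35116 windows. The 2 genes were ABCC5 and ABCG2, both efflux pumps, whose 250 bases before the start are shown with the matched letters in capitals. ABCC5 lies at chr3:184017885-184018134 and ABCG2 at chr4:88159291-88159540 (GRCh38.p14, RefSeq, both on the minus strand, read 5′ to 3′):
ABCC5: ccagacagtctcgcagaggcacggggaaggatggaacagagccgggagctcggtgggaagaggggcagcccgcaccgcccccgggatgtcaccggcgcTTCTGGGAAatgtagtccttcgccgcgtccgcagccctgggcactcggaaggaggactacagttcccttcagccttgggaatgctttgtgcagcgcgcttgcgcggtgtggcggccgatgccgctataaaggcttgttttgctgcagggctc
ABCG2: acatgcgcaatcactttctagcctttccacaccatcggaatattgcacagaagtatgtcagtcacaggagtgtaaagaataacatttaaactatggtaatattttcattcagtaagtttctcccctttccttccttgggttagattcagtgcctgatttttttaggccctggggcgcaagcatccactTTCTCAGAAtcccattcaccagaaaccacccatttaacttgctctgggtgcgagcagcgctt
The letters begin 152 bases before the ABCC5 start and 62 bases before the ABCG2 start. With IL-6, the log2 fold of the brightest ABCC5 set was 0.04 in SKOV-3 and 0.21 in Caov-3, and that of ABCG2 was 0.10 and 0.17. Over both lines the limma differences at these sets were 0.12 for ABCC5 (adjusted p = 0.762) and 0.14 for ABCG2 (adjusted p = 0.885). The further bright ABCC5 sets had IL-6 folds of 0.45 and -0.03 in SKOV-3 and of -0.36 and -0.40 in Caov-3. The sign for ABCC5 thus turned with the probe set.

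The third comparison was siltuximab and IL-6 against IL-6 alone, which asks what the antibody changed in cells given IL-6. It shares its IL-6 array with the second comparison, so a value on that array moves both, in opposite directions. Over both lines limma called 0 of the 22 ABC genes and 0 of all genes (0%), with 0 ABC genes and 398 genes in all at an unadjusted p under 0.05. In SKOV-3, 0 of 21 ABC genes were at least 1.5-fold higher with the antibody, against 2.11% of 11238 genes, and 1 (4.76%) was at least 1.5-fold lower, against 2.46%. That gene was ABCA7, at 306 after IL-6 and 188 after siltuximab and IL-6, a log2 fold of -0.66. ABCC3 was at 324 on both SKOV-3 arrays, and ABCC4 was at 1177 and 1148, beside their untreated signals of 613 and 685.

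Against untreated SKOV-3 cells, the array with siltuximab and IL-6 gave log2 folds of -0.95 for ABCB9 (137 untreated and 62.2 with both agents), -0.88 for ABCC3, 0.73 for ABCC4, -0.71 for ABCA3, -0.57 for ABCA7 and 0.34 for ABCC10. The largest upward SKOV-3 folds of siltuximab and IL-6 over IL-6 were 0.42 for ABCA2, 0.40 for ABCF3 and 0.40 for ABCB6. These 3 genes had IL-6 folds of -0.51, -0.45 and -0.23, and the shared IL-6 array was the lowest of the SKOV-3 arrays for each.

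In Caov-3, 0 of 21 ABC genes were at least 1.5-fold higher with siltuximab, against 5.27% of 11829 genes, and 0 were at least 1.5-fold lower, against 2.87%. The folds ran from -0.54 for ABCA3 to 0.48 for ABCB9, with ABCB8 at 0.42, ABCC4 at 0.23, ABCB10 at -0.31 and ABCC5 at -0.29. Of the 21 folds 16 were below 0, as were 7621 of 11829 for all genes, and the medians were -0.13 and -0.09. Among efflux genes, the brightest sets of ABCC3, ABCC1 and ABCG2 had -0.25, -0.29 and -0.05. The further set of ABCC1 had 0.43, and those of ABCC3 had -0.13, 0.16, 0.44 and 0.18.

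The probe sets of the same gene were set against each other over all members. Of 17 further bright probe sets, 15 had the sign of the brightest set for the difference between the lines. For IL-6 over untreated 7 of 17 had the same sign in SKOV-3 and 7 of 17 in Caov-3, and for siltuximab and IL-6 over IL-6 6 of 17 and 8 of 17 did. The sign between the lines was thus mostly shared by the probe sets of a gene, whereas that of folds within a line mostly was not. These counts are of signs only, without a share of all genes. Sets of ABCD3 and ABCC5 that shared the sign differed by only 0.03. Where the brightest set was at least 1.5-fold apart, 11 of 12 further sets shared its sign between the lines. For IL-6 in SKOV-3, 3 of 7 did. The other comparisons within a line had 0 such sets, so their signs belong to small folds.

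The other genes of drug handling came from a list of uptake carriers, further exporters, conjugating enzymes, ABC proteins under another symbol, and regulators of ABC genes. Of 40 listed genes 36 were measured and 30 tested between the lines, with 14 higher and 11 lower in Caov-3, where 38.6% and 32.3% of all genes tested were. SLCO1B3, a liver uptake carrier that also takes up taxanes, was at 1875, 1951 and 1729 in SKOV-3 against 52.0, 12.2 and 4.60 in Caov-3. It was below the array median on every Caov-3 array and passed the filter through SKOV-3 alone, so it had to differ. GCLC and GCLM, the subunits of the enzyme that limits glutathione synthesis, were higher in Caov-3 by 1.65 and 1.04, and the glutathione transferase genes GSTM1 and GSTP1 by 3.09 and 0.97, each called by limma. GSTM1 was read from an _x_at probe set, a kind that can match several transcripts. A further glutathione transferase gene, GSTA1, went the other way, at 239, 217 and 260 in SKOV-3 against 103, 67.5 and 94.9 in Caov-3, and it too passed the filter through SKOV-3 alone.

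TAP1 and TAP2, the ABC proteins that bring peptides to class I molecules, were lower in Caov-3 by log2 differences of -0.76 and -3.06. TAP2 was at 5824, 5593 and 5408 in SKOV-3 against 627, 714 and 629 in Caov-3. Of the regulators, the liver X receptor gene NR1H3, whose protein induces ABCA1, was higher in Caov-3, by 1.24 (adjusted p = 0.000564 by limma), where ABCA1 was lower. Its partner RXRA was lower by a difference of -1.43 (adjusted p = 0.00115 by limma). The part of NR1H3 and RXRA in the ABCA1 difference was not tested. NFE2L2, which induces ABCC genes and glutathione enzymes, was at 8186 to 8487 in SKOV-3 and 6897 to 7634 in Caov-3, a difference of -0.19 (adjusted p = 0.0386 by limma). For IL-6 and for siltuximab, limma called 0 of the 30 genes, with 3 and 2 of them at an unadjusted p under 0.05.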

How the data were processed

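The deposited files hold linear intensities for each probe set, made with MAS5 in Affymetrix Expression Console, per the submitters' processing notes, without stated versions. The authors' values were already scaled to a common mean on every array, and they were not normalized again. Of 54675 probe sets, 41091 carried 1 symbol in GEO's platform annotation, 1801 several and 11721 none, and 62 were controls. Each gene was followed by its brightest probe set on average, log2 was taken after adding 17.06 (the 20th percentile of named probe sets), and genes at or above the array median on at least 2 arrays entered the fit. limma 3.58.1 in R 4.3.3 (line and treatment as factors, trended prior variance, 2 residual degrees of freedom) was tested on simulated data, with Benjamini-Hochberg adjustment over all genes. Python 3.11.15 was used elsewhere.

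Genes at least 1.5-fold apart between 2 arrays were counted without a test. Values on all arrays were to be given for ABCB1, ABCC1, ABCC2, ABCC3, ABCG2, the 12 members that differed most between the lines, and the 3 members with the largest fold in each direction of each comparison within a line. The members and lists were chosen with earlier results of these data known. Alternatives were 2 normalizations, 2 pseudocounts, 2 filters, other choices of probe set, other fits, a 2-fold threshold, and leaving out each array.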

Additional observations from a re-analysis of the deposited data

How the results depend on the processing

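The line difference of each gene was counted once under each alternative, so a gene could count several times. Of these cases, 323 kept their direction and their side of the threshold. A further 5, of ABCB8, ABCF2 and ABCG1, moved past it. Another 5, of ABCC5 and ABCC10, fell short of it, and 1, of ABCC5, reversed. Without probe sets that can match several transcripts (_x_at and _s_at) 9 ABC genes were called between the lines, 5 of them higher in Caov-3, and ABCC5 reversed to -0.59 (adjusted p = 0.00663 by limma); with the mean of all probe sets ABCC5 was at 0.01. Fewer genes are measured under the first of these settings. ABCB8 and ABCF2 were called without the Caov-3 IL-6 array (adjusted p = 0.0481 and 0.0487 by limma), and ABCG1 with a pseudocount of the median (adjusted p = 0.0433) or without a trend in the prior variance (adjusted p = 0.0303), and ABCF2 also with the mean of all probe sets. Leaving out 1 array at a time gave 13 to 16 ABC genes called between the lines, 0 to 1 for IL-6 and 0 for siltuximab. The number of ABC genes at least 1.5-fold apart was the least stable. For IL-6 in SKOV-3 it was 4, and it was 0 at 2-fold, 2 with a pseudocount of the median and 13 without a filter. For IL-6 in Caov-3 it was 0, with 4 without a filter and 1 without _x_at and _s_at sets. For siltuximab in SKOV-3 it was 1, and it was 0 at 2-fold, with a pseudocount of the median, with the filter raised to the 75th percentile, and without _x_at and _s_at sets, 2 with the mean of all probe sets and 10 without a filter. For siltuximab in Caov-3 it was 0, with 1 under quantile normalization, cyclic loess, a pseudocount of 1 or no _x_at and _s_at sets, and 4 without a filter. Without a filter all 42 ABC genes entered these counts, including the 20 that were below the median on every array. Shares of all genes are not given for the alternative settings, so the counts of ABC genes under them have no background. The ABCC3 fold with IL-6 in SKOV-3 reversed from -0.89 to 0.054 with the mean of all probe sets. Apart from what an alternative leaves out by its construction, the causes were not tested. Cyclic loess moved the median of all genes by less than 0.1 in each comparison. No detection calls were used, so low signals could not be told from background.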
